A study of Mus musculus with 6 samples.

Results

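The DNA replication fork machinery is described here through 39 genes that encode the polymerases, the clamp and its loader, the single-strand binding protein, the origin recognition complex, the GINS complex and their partners. The genes were taken by symbol from the table of gene counts, and all 39 were present among its 11922 genes. RNA was sequenced from CD8+ T cells of the spleen of C57BL6/J mice, sorted with magnetic beads and activated for 72 h on Dynabeads carrying anti-CD3 and anti-CD28, with IL-2 at 100 units/ml. The cells were expanded in IL-2 for 4 further days and harvested on day 7. The vehicle group received water and the AOA group received 0.25 mM AOA throughout. AOA (aminooxyacetic acid) inhibits enzymes whose cofactor is pyridoxal phosphate, to which cells convert vitamin B6. The same 3 mice gave a culture to each group, so that 3 vehicle and 3 AOA libraries, numbered by mouse, were compared. Activation, IL-2 and time in culture were common to both groups.

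A replication fork is prepared when the origin recognition complex marks an origin and the MCM helicase is loaded there. CDC7-DBF4 kinase, CDC45 and GINS then turn the loaded helicase into an active one, polymerase alpha-primase lays down RNA-DNA primers, and polymerases epsilon and delta extend the leading and the lagging strand on the sliding clamp PCNA. In T cells many of these genes are transcribed at a low level at rest and at a high level in the divisions that follow activation.

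Levels are given in CPM, counts scaled to the effective size of each library so that libraries of different depth can be compared. Total counts ranged from 12881962 to 18934869 with vehicle and from 18696114 to 21997078 with AOA, and every member passed the filter on low counts. Vehicle replicate 2 stood apart from the other vehicle libraries, and AOA replicate 1 from the other AOA libraries, in the counts of all genes. A chi-square per gene of 55.1 and 59.7 separated vehicle replicate 2 from the other vehicle libraries, a pair that differed far less from each other. For AOA replicate 1 the values were 71.1 and 64.6, against 10.5 between the other two. The CD8 T cell list had 6 genes measured, with a summed level of 3811 to 4748 CPM with vehicle and 4876 to 5726 CPM with AOA, and Cd8a and Cd8b1 were higher with AOA. The log2 fold changes of Cd3e, Cd3d, Cd3g and Lck were -0.27, -0.13, -0.31 and -0.06, none of them called, and all 3 AOA libraries of Cd3g lay below its vehicle libraries. Of 4 CD4 T cell genes 3 were lower with AOA, and Foxp3 was not called (0.36). Over all genes tested 26.2% were higher and 26.8% lower. The CD4 T cell list summed to 158 to 211 CPM with vehicle and 33.0 to 54.3 CPM with AOA. The 3 myeloid genes tested, Itgam, Cd68 and Fcgr3, were lower, and the list summed to 59.1 to 77.7 CPM with vehicle and 4.28 to 8.67 CPM with AOA, with Lyz2 at 0 in vehicle replicates 1 and 3. The B cell list, 5 genes with 1 higher and 1 lower, summed to 13.9 to 18.4 CPM with vehicle and 23.1 to 30.9 CPM with AOA. The NK cell list had 4 genes, with Klrb1c lower and Ncr1 at 0 in vehicle replicates 1 and 3. It summed to 521 to 971 CPM with vehicle, highest in replicate 2, and 705 to 927 CPM with AOA. Nkg7 and Eomes, neither called (log2 fold changes 0.505 and 0.04), made up most of it, at means of 462 and 151 CPM with vehicle. Klrb1c (-3.02) measured 41.7, 111 and 20.1 CPM in vehicle replicates 1 to 3 and 3.38 to 11.05 CPM with AOA. The part of these lists in the results on the replication genes was not tested.

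The fork genes were higher with AOA in nearly all complexes. Of the 39 genes 36 were higher, 1 was lower and 2 did not pass the test at an adjusted p of 0.05. Of all 11759 genes tested 26.2% were higher and 26.8% were lower, 53.0% in all. In 32 of the 36 the log2 fold change was at least 1, a size that 12.1% of all genes reached in that direction. The median log2 fold change of the 39 genes was 1.71, beside -0.02 over all genes tested, and their range was -1.53 to 3.14. Within the mice the median difference was 1.84, 1.60 and 1.67 in mouse 1, 2 and 3. The members summed to 1638, 1702 and 1812 CPM in vehicle replicates 1 to 3 and to 6011, 5891 and 6429 CPM in AOA replicates 1 to 3. In 36 genes the AOA libraries all lay above the vehicle libraries and in 1 they all lay below, while 31.0% and 31.1% of all genes did so. Each called gene moved in the same direction in 3 of 3 mice. In these bulk samples fewer cells of a type and less RNA per cell cannot be told apart.

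**Figure D1:**
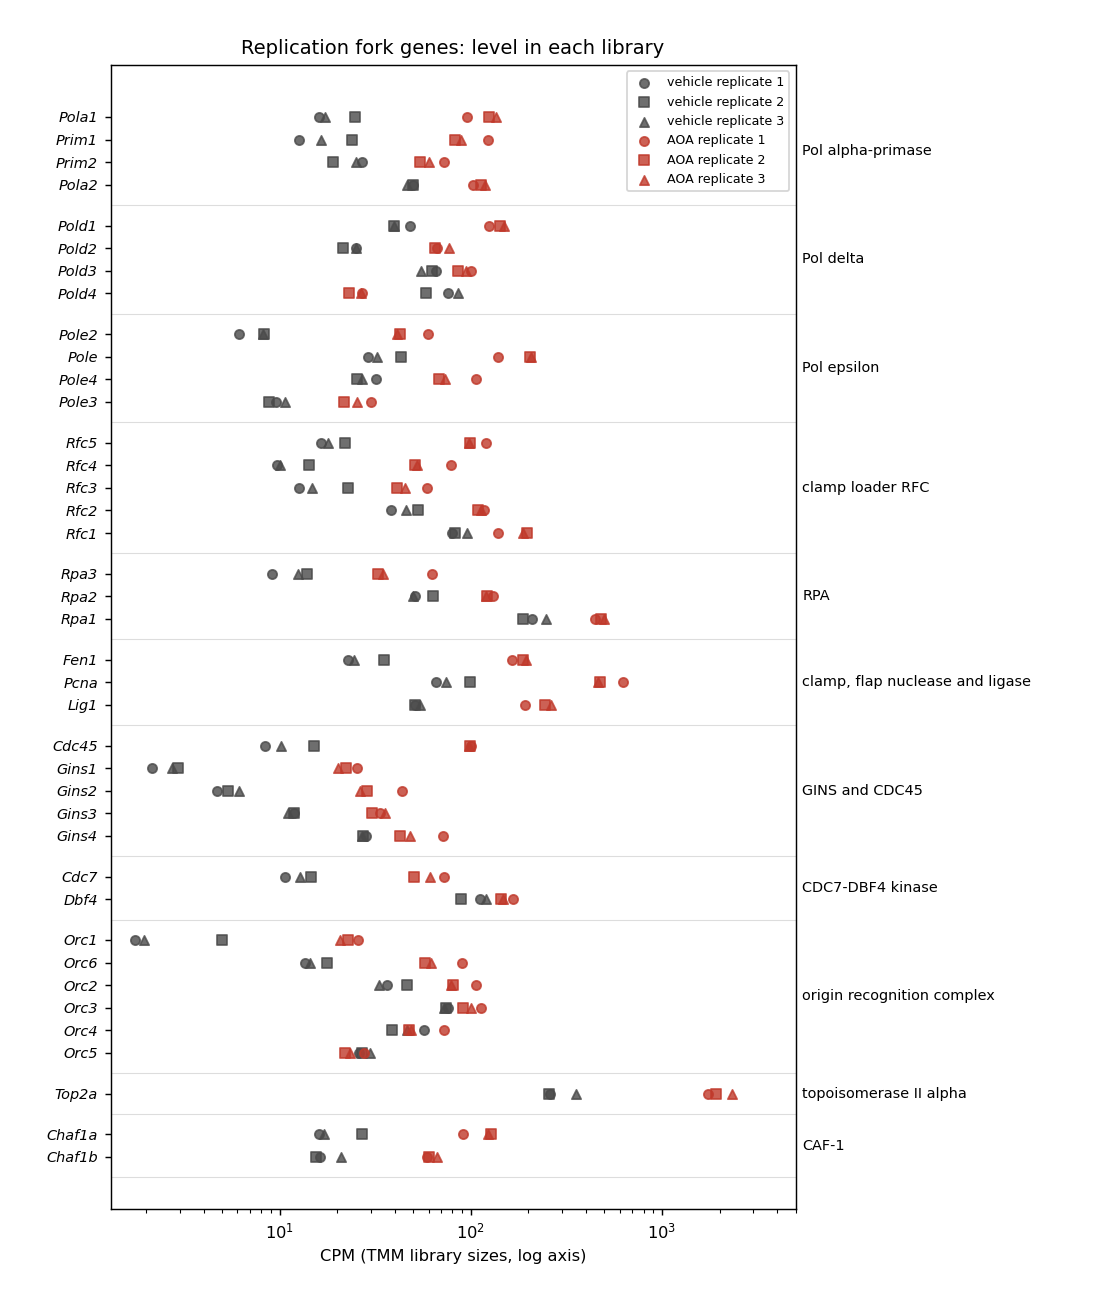
Level of each of the 39 genes in each library, in CPM on a log axis, grouped by complex; grey symbols are vehicle and red symbols AOA libraries, and the symbol shape gives the mouse. The red symbols lie to the right of the grey ones in 36 genes, to the left in Pold4, and among them in Orc4 and Orc5.

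Upstream sequences are shown for 4 genes, chosen after their values were seen, to set the promoters of both listed subunits of a complex and of a topoisomerase, all of which rose, beside that of the member that fell. Chaf1a and Chaf1b encode subunits of the histone chaperone CAF-1, Top2a encodes a topoisomerase, and Pold4 is the polymerase delta subunit that was lower with AOA. The sequences are those of RefSeq on GRCm38.p6, written 5′ to 3′ along the strand of the gene and ending at its start. They cover chr17:56040166-56040415 on the plus strand (Chaf1a), chr16:93883651-93883899 on the plus strand (Chaf1b), chr11:99024200-99024439 on the minus strand (Top2a) and chr19:4231643-4231892 on the plus strand (Pold4). Capitals mark 3 kinds of word on either strand: E2F-like words (either the form TTGGCGC, the form TTCCCGC, the form TTGCCGC or the form TTCGCGC), the box CCAAT, and the word TTTGAA of the cell cycle homology region (CHR).
Chaf1a: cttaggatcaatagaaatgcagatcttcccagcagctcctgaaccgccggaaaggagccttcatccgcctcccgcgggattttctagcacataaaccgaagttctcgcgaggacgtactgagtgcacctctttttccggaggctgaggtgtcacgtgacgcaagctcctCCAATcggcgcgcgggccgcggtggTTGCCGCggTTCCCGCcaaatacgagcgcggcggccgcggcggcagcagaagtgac
Chaf1b: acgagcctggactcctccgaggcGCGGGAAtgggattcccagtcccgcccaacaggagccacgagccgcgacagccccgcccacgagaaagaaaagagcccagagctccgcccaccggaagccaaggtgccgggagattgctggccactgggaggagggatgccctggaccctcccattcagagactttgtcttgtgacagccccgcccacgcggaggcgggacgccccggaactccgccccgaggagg
Top2a: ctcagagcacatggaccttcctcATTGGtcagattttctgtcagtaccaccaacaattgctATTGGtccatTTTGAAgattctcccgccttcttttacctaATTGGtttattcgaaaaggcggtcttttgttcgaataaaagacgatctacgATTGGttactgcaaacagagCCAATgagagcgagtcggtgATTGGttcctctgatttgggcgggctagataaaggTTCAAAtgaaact
Pold4: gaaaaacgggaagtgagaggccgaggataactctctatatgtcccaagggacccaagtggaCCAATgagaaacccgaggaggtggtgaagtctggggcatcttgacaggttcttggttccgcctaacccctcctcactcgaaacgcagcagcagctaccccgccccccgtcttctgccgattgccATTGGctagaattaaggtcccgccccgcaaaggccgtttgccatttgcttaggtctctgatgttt
The Chaf1a sequence held 2 E2F-like words and 1 CCAAT, and that of Chaf1b held 1 E2F-like word. Top2a held 6 CCAAT and 2 CHR words and no E2F-like word. Pold4 held 2 CCAAT and no word of the other kinds.

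Of the 39 genes 33 had such a promoter entry. Pole, Prim2, Rfc2, Gins1, Gins2 and Gins4 had none here. In the 250 bases before the start, 15 of 33 genes (45.5%) held an E2F-like word, beside 16.6% of 9438 tested genes and 9.01% of 27025 genes with an entry. CCAAT stood in 18 of 33 (54.5%), beside 40.6% of tested genes and 37.5% of all genes. The CHR word stood in 6 of 33 (18.2%), beside 12.8% and 18.3%. In the 297 other genes called higher with a log2 fold change of at least 2, an E2F-like word stood in 22.6%, CCAAT in 51.9% and the CHR word in 20.2%, so that the last 2 shares were near those of the fork genes. Overlapping matches of 1 kind were counted as 1, and the kinds could overlap each other. The 15 genes with an E2F-like word had a median log2 fold change of 1.82, from 0.25 to 2.98. The 18 without one had a median of 1.63, from -1.53 to 3.14, and the ranges overlapped. E2F proteins are activators and repressors of genes of the G1 to S transition. A match of letters is a description and does not show binding.

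Polymerase alpha-primase, the enzyme that starts each new strand, was higher in all 4 of its subunits, with a median log2 fold change of 1.94. Pola1, the catalytic polymerase subunit, measured 16.1, 24.8 and 17.2 CPM in vehicle replicates 1 to 3 and 94.8, 124 and 136 CPM in AOA replicates 1 to 3. The groups lay far apart, although vehicle replicate 2 was the highest vehicle library and AOA replicate 1 the lowest AOA library. The log2 fold change of Pola1 was 2.61 (SE 0.21, edgeR adjusted p = 2.69e-05). Pola2, the regulatory subunit that binds it, measured 49.7, 49.9 and 46.0 CPM with vehicle and 102, 113 and 118 CPM with AOA, a log2 fold change of 1.20 (SE 0.12, edgeR adjusted p = 9.6e-05). Its libraries were tight within each group. The primase subunits rose by 2.48 (Prim1, catalytic, SE 0.25) and 1.40 (Prim2, the large subunit, SE 0.18) on the log2 scale. With vehicle, Prim2 and Prim1 stood at 11.9 and 11.5 CPM per kilobase, whereas with AOA Prim1 stood at 64.0 and Prim2 at 31.4.

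Polymerase delta, which extends the lagging strand, had subunits called in both directions. Its other 3 subunits rose and Pold4 fell. Pold1, the catalytic and proofreading subunit, measured 48.1, 39.5 and 39.8 CPM with vehicle and 125, 142 and 149 CPM with AOA, a log2 fold change of 1.71 (SE 0.14, edgeR adjusted p = 3.11e-05). Pold2, which joins the catalytic subunit to the others, followed it with 1.55 (SE 0.14), while Pold3, which contacts PCNA, rose by 0.62 (SE 0.13, edgeR adjusted p = 0.00375). Pold4 (Entrez 69745, chr19:4231893-4233634 on GRCm38.p6), the smallest subunit, whose promoter is shown above, measured 75.6, 58.2 and 85.9 CPM with vehicle. In AOA replicates 1 to 3 Pold4 measured 26.8, 22.9 and 26.6 CPM. Even the highest AOA library lay well below the lowest vehicle library. The log2 fold change was -1.53 (SE 0.17, edgeR adjusted p = 1.29e-04), a level 2.88-fold lower with AOA. Per kilobase Pold4 ranked 1 of 39 with vehicle (75.7 ± 14.5 CPM per kilobase, SD, n = 3) and 29 of 39 with AOA (26.3 ± 2.24). In GENCODE, 24.6% of the exonic bases of Pold4 are shared with AC109138.7 on the same strand, so that its counts may hold or lack reads of that gene model.

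Polymerase epsilon, the leading strand polymerase, rose in all 4 subunits, with a median log2 fold change of 1.98. Pole2, the accessory subunit next to the catalytic one, measured 6.11, 8.31 and 8.14 CPM with vehicle and 59.4, 42.4 and 41.2 CPM with AOA (log2 fold change 2.66, SE 0.21, edgeR adjusted p = 2.33e-05). Pole3, a histone-fold subunit, measured 9.52, 8.81 and 10.6 CPM with vehicle and 30.0, 21.7 and 25.4 CPM with AOA (1.41, SE 0.18, edgeR adjusted p = 2.59e-04). In both genes AOA replicate 1 was the highest library. Pole, the catalytic subunit, rose by 2.40 (SE 0.21) with AOA replicate 1 the lowest of its AOA libraries, at 138 CPM against 204 and 207 CPM. Pole4, the partner of Pole3 in the histone-fold pair, rose by 1.56 (SE 0.19).

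**Figure D2:**
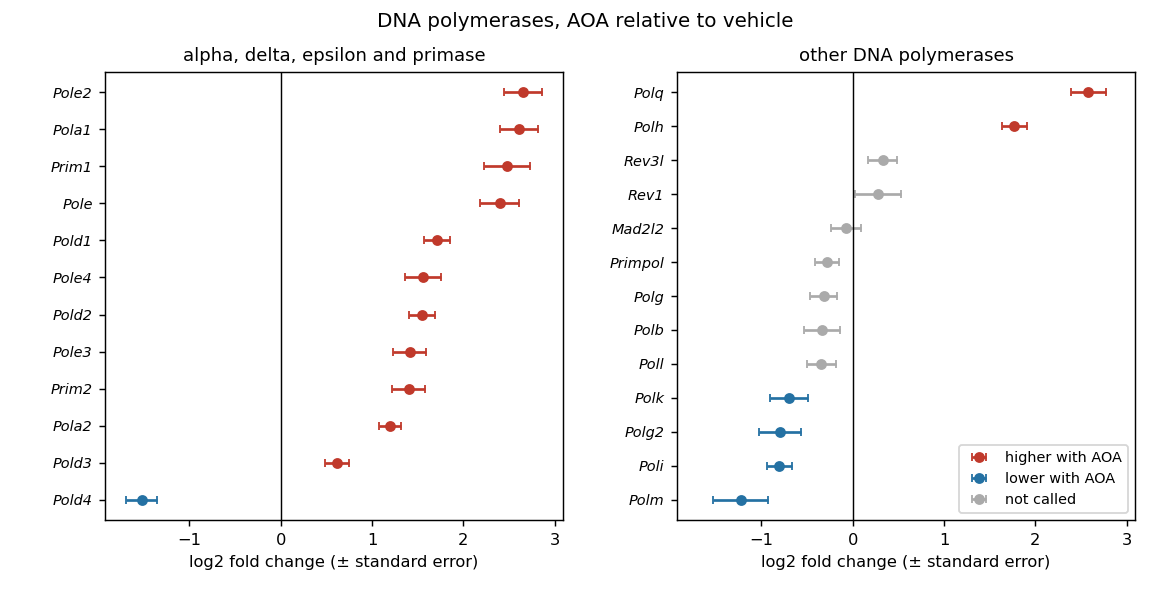
Log2 fold change (AOA relative to vehicle, bars are standard errors, 3 libraries per group) of the fork polymerase and primase subunits on the left and of 13 genes of other DNA polymerases, translesion enzymes among them, on the right; colour gives the edgeR call. On the left 11 of 12 genes lie above 0 and Pold4 lies at -1.53, and on the right Polq and Polh are higher, 4 genes are lower and 7 did not pass the test.

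The DNA polymerases other than alpha, delta and epsilon had called genes in both directions, with no larger share called higher than among all genes. Of 13 such genes, for translesion synthesis, repair and mitochondria, 2 were higher, 4 were lower and 7 did not pass the test, beside 26.2% higher and 26.8% lower of all genes tested, and their median log2 fold change was -0.32. Polq, the polymerase of microhomology-mediated end joining, rose by 2.58 (SE 0.19), from 4.92, 6.97 and 5.10 CPM to 30.2, 33.6 and 38.1 CPM. Polh, which copies across ultraviolet lesions, rose by 1.77 (SE 0.14). Polm, an end joining polymerase, fell by 1.23 (SE 0.30, edgeR adjusted p = 0.0079), Poli fell by 0.80 (SE 0.14) and Polg2, the mitochondrial accessory subunit, fell by 0.80 (SE 0.23). Polk also fell, by 0.70 (SE 0.21). In Polm and Polk vehicle replicate 2 was the highest library. Polm measured 12.2, 25.2 and 12.6 CPM with vehicle and 5.79, 7.24 and 8.32 CPM with AOA. Polk measured 39.6, 62.8 and 38.3 CPM with vehicle and 25.8, 29.1 and 31.8 CPM with AOA.

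The clamp loader RFC, which opens PCNA and places it on the primed template, rose in 5 of 5 subunits, with a median log2 fold change of 1.54. Rfc5, a small subunit, measured 16.4, 21.8 and 18.0 CPM with vehicle and 120, 98.7 and 98.0 CPM with AOA (2.49, SE 0.16, edgeR adjusted p = 1.4e-05). Rfc1, the large subunit particular to the replicative loader, measured 79.4, 82.7 and 95.4 CPM with vehicle and 139, 197 and 188 CPM with AOA (1.03, SE 0.16, edgeR adjusted p = 8.65e-04). Both genes were separated between the groups, and the smaller change was that of Rfc1. The remaining small subunits rose by 1.31 (Rfc2, SE 0.15), 1.54 (Rfc3, SE 0.24) and 2.43 (Rfc4, SE 0.23). In GENCODE, 15.1% of the exonic bases of Rfc2 lie opposite Lat2, which fell by 3.44. For Rfc4 the share is 12.7%, opposite Eif4a2, which fell by 0.51. A processed pseudogene, Gm12870, is 96.2% identical to Rfc5 over 1020 bases, and the Rfc5 level is uncertain to the extent that its reads could not be placed uniquely. The alternative loaders, in which other large subunits join the small RFC subunits, had 4 of 5 listed genes higher and 1 not called, with a median of 2.46. Dscc1 (3.20, SE 0.29), Chtf18 and Atad5 (2.84 and 2.46) led them, and Chtf8 measured 0.27 (edgeR adjusted p = 0.0956).

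PCNA, the flap nuclease FEN1 and DNA ligase I, which together mature the lagging strand, rose by 2.70 at the median of their log2 fold changes. Pcna measured 65.3, 99.5 and 74.4 CPM with vehicle and 622, 472 and 460 CPM with AOA (2.70, SE 0.21). Fen1 measured 22.6, 35.2 and 24.5 CPM with vehicle and 164, 186 and 194 CPM with AOA (2.72, SE 0.19, edgeR adjusted p = 1.51e-05). Lig1 measured 51.0, 51.2 and 54.3 CPM with vehicle and 193, 245 and 262 CPM with AOA (2.16, SE 0.15, edgeR adjusted p = 1.61e-05). Vehicle replicate 2 was the highest vehicle library for Pcna and Fen1, and it remained far below every AOA library. Per kilobase Pcna rose from 63.3 to 411 CPM and ranked 1 of the 39 genes with AOA. Pcna has a processed pseudogene, Pcna-ps2, 99.2% identical over 781 bases, and 78.8% of the exonic bases of Fen1 lie opposite the antisense gene Gm10143, so that both levels are uncertain to that extent.

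Replication protein A, which coats single-stranded DNA, rose in 3 of 3 subunits, with a median log2 fold change of 1.18. Rpa1, the large DNA-binding subunit, measured 209, 187 and 248 CPM with vehicle and 448, 478 and 495 CPM with AOA (1.14, SE 0.15, edgeR adjusted p = 3.45e-04). Rpa3, the smallest subunit, measured 9.13, 13.9 and 12.4 CPM with vehicle and 62.2, 32.8 and 34.7 CPM with AOA (1.87, SE 0.27, edgeR adjusted p = 5.36e-04). The AOA libraries of Rpa3 differed among themselves, replicate 1 being nearly level with the sum of the others. Without AOA replicate 1 the log2 fold change of Rpa3 was 1.52. Rpa2, the middle subunit, rose by 1.18 (SE 0.14).

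GINS and CDC45, the cofactors that make the MCM helicase active, rose in 5 of 5 genes, with a median log2 fold change of 2.60. Cdc45 measured 8.33, 15.1 and 10.1 CPM with vehicle and 100.1, 98.8 and 97.7 CPM with AOA (3.14, SE 0.21, edgeR adjusted p = 1.51e-05), an 8.82-fold rise. Its AOA libraries were almost equal. Gins1, the PSF1 subunit, measured 2.14, 2.92 and 2.71 CPM with vehicle and 25.3, 22.1 and 20.1 CPM with AOA (3.11, SE 0.21). Gins2 and Gins3 rose by 2.60 (SE 0.23) and 1.51 (SE 0.15). Gins4, the SLD5 subunit, had the smallest change, with 28.3, 27.1 and 27.0 CPM with vehicle and 71.0, 42.8 and 48.2 CPM with AOA (0.98, SE 0.19, edgeR adjusted p = 0.00265). Among the GINS subunits the level per kilobase with vehicle ran from 2.24 CPM in Gins1 to 20.2 CPM in Gins4, and with AOA it ran from 13.7 CPM in Gins3 to 39.6 CPM in Gins4. In GENCODE, 67.3% of the exonic bases of Gins2 lie opposite Gse1, which measured -0.33 (edgeR adjusted p = 0.0858).

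The kinase that triggers origin firing rose in both subunits, with the larger fold change in the catalytic one. Cdc7, the kinase, measured 10.6, 14.6 and 12.8 CPM with vehicle and 72.0, 50.3 and 60.9 CPM with AOA (2.26, SE 0.19, edgeR adjusted p = 3.09e-05). Dbf4, its activating subunit, measured 111, 88.3 and 119 CPM with vehicle and 166, 144 and 147 CPM with AOA (0.52, SE 0.15, edgeR adjusted p = 0.0159). The groups did not overlap in either gene, but the lowest AOA library of Dbf4 lay only a little above its highest vehicle library.

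The origin recognition complex had 4 of 6 subunits higher, 2 not called and a median log2 fold change of 0.82. Orc1, an ATPase subunit that comes and goes with the cell cycle, measured 1.75, 5.01 and 1.95 CPM with vehicle and 25.5, 22.7 and 20.7 CPM with AOA (2.98, SE 0.36, edgeR adjusted p = 2.09e-04). Vehicle replicate 2 was the highest vehicle library by a wide margin, and without it the log2 fold change was 3.66. Orc6, the subunit least tightly bound to the others, rose by 2.19 (SE 0.21). Orc2 rose by 1.19 (SE 0.18) and Orc3 by 0.45 (SE 0.13, edgeR adjusted p = 0.0159). The call on Orc3 was lost without vehicle replicate 3 (0.45, edgeR adjusted p = 0.055). In GENCODE, 29.8% of the exonic bases of Orc2 lie opposite Nif3l1, which rose by 0.57 (edgeR adjusted p = 0.019). Orc4, another ATPase subunit, measured 56.8, 38.7 and 46.4 CPM with vehicle and 72.0, 47.5 and 48.6 CPM with AOA (0.25, SE 0.20, edgeR adjusted p = 0.333). Orc5 measured 25.9, 26.9 and 29.6 CPM with vehicle and 27.5, 21.8 and 23.4 CPM with AOA (-0.18, SE 0.15, edgeR adjusted p = 0.325). The groups overlapped in Orc4 and Orc5, and neither direction was established. Within mice 1 to 3 the differences were 0.34, 0.29 and 0.07 in Orc4 and 0.085, -0.30 and -0.34 in Orc5. In Orc4 mouse 1 gave the highest library of each group.

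Topoisomerase II alpha, which disentangles replicated DNA and compacts chromosomes before division, stood at 55.4 CPM per kilobase with vehicle and at 381 CPM per kilobase with AOA, where of the 39 genes only Pcna was higher. Top2a measured 258, 257 and 353 CPM with vehicle and 1741, 1907 and 2314 CPM with AOA (2.78, SE 0.21, edgeR adjusted p = 1.95e-05). Every AOA library was above every vehicle library. Top2b, the isoform that is also present in cells that do not divide, measured 0.34 (SE 0.18, edgeR adjusted p = 0.139). CAF-1, which places histones H3 and H4 on new DNA, rose in both subunits listed. Chaf1a measured 16.0, 26.9 and 16.9 CPM with vehicle and 91.1, 127 and 123 CPM with AOA (2.51, SE 0.23), and Chaf1b measured 16.3, 15.4 and 20.8 CPM with vehicle and 58.7, 60.5 and 66.4 CPM with AOA (1.82, SE 0.16). In GENCODE, 52.5% of the exonic bases of Chaf1a lie opposite Ubxn6, which fell by 0.97 (edgeR adjusted p = 3.73e-04).

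**Figure D3:**
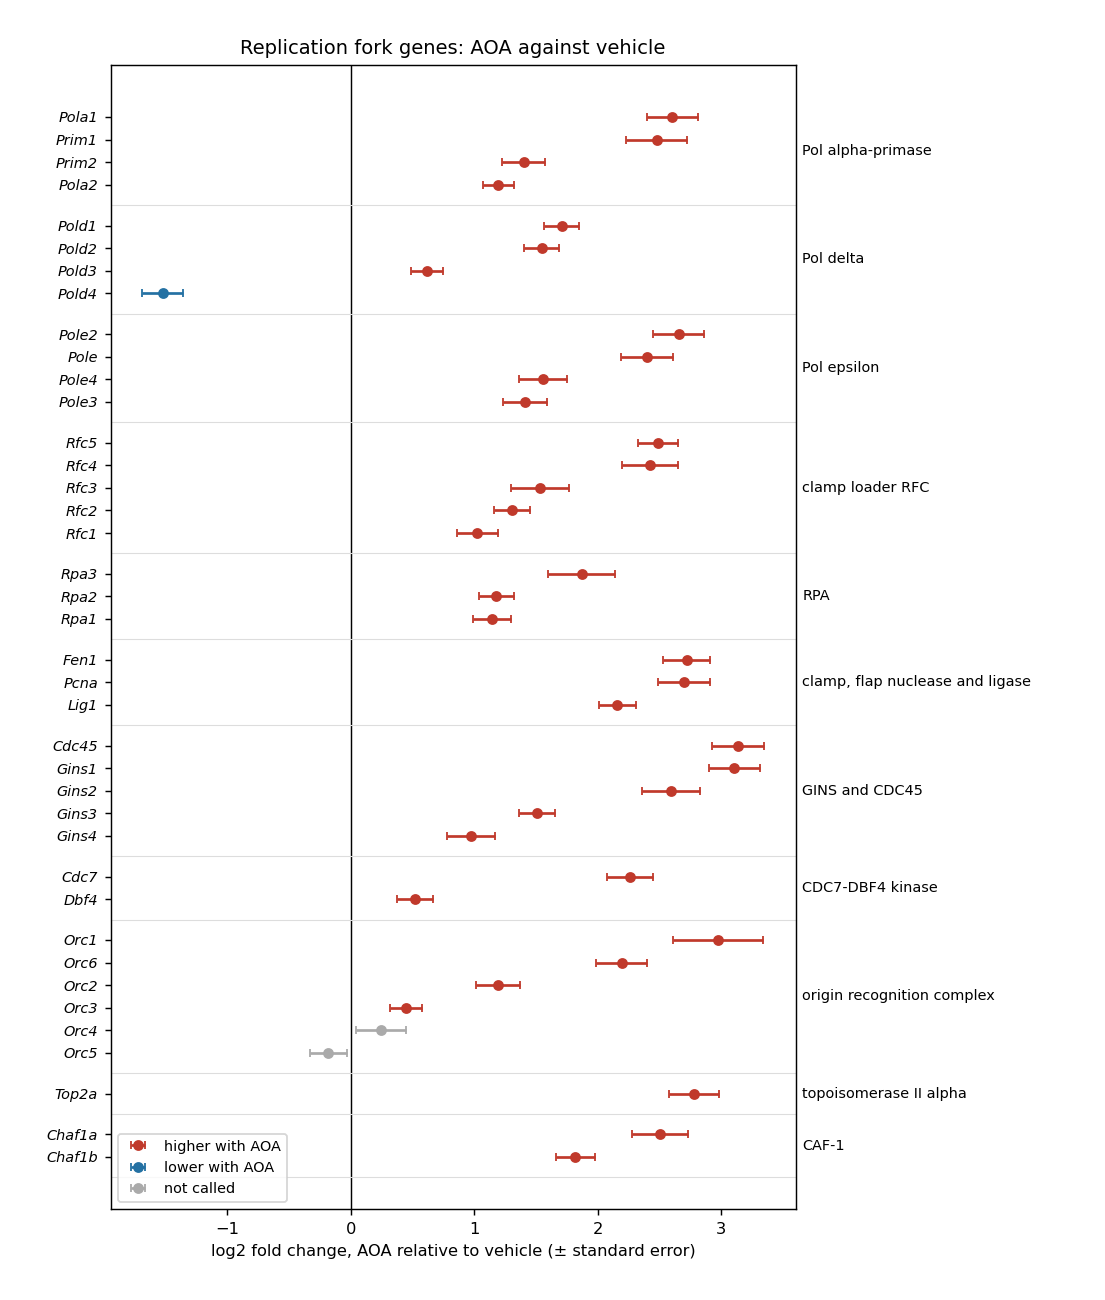
Log2 fold change of each of the 39 genes, AOA relative to vehicle, with standard errors from the edgeR fit of 3 libraries per group; red is higher, blue lower and grey not called. The values run from -1.53 in Pold4 to 3.14 in Cdc45, and the origin recognition complex spans -0.18 to 2.98.

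Ratios between subunits of 1 complex were taken within each library, where the size of the library cancels. Of 16 ratios 10 did not overlap between the groups, 3 higher and 7 lower with AOA, beside 62.1% of single genes whose groups did not overlap. The smallest p that an exact two-sided permutation test of 3 against 3 libraries can give is 0.1, and these 10 ratios all had it, which is 0.16 after Benjamini-Hochberg adjustment over the 16. No ratio could therefore pass 0.05. The log2 ratio of Pold4 to Pold1 was 0.65, 0.56 and 1.11 with vehicle and -2.22, -2.63 and -2.48 with AOA, a difference of -3.21 (SD over 3 mice 0.36). That of Orc1 to the mean of Orc2, Orc3, Orc4 and Orc5 was -4.60, -3.09 and -4.37 with vehicle and -1.45, -1.21 and -1.39 with AOA, a difference of 2.67 (SD 0.69). Orc6 relative to the same 4 subunits differed by 1.75 (SD 0.33). The ratio of Pola2 to Pola1 differed by -1.42 (SD 0.25) and that of Dbf4 to Cdc7 by -1.72 (SD 0.58). The ratio of Pold3 to Pold1 differed by -1.09 (SD 0.31).

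The size of 4 further differences varied between mice. Those of Rpa3 to Rpa2 (0.64), Rfc1 to the mean of its small subunits (-0.93), Prim2 to Prim1 (-1.10) and Gins3 to the mean of the other GINS subunits (-0.69) became 0.25, -0.59, -0.72 and -0.43 without mouse 1. Without mouse 2 the Rfc1 difference was -1.29 and the Prim2 difference -1.51. The groups overlapped in Pold2 to Pold1 (-0.16, exact permutation p = 0.2, n = 3 per group), Pole3 to Pole (-0.998), Pole4 to Pole (-0.86) and Chaf1b to Chaf1a (-0.70). Within mice the difference had 1 sign in 3 of 3 mice for Pole3, Pole4 and Chaf1b, and in 2 of 3 for Pold2. The groups overlapped widely in Pole2 to Pole (0.25, exact permutation p = 0.8) and Rpa1 to Rpa2 (-0.04, exact permutation p = 0.9), which do not show that these ratios were equal.

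**Figure D4:**
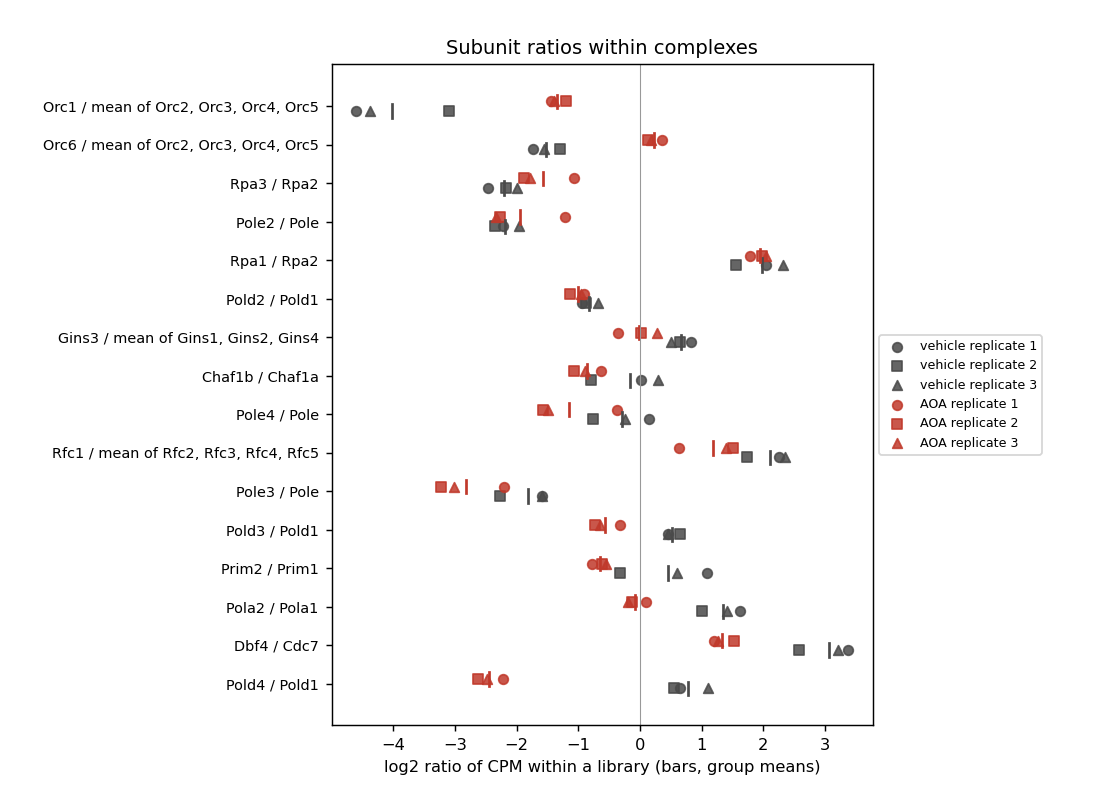
Log2 ratio of CPM between subunits of a complex in each library, vehicle in grey and AOA in red, with the symbol shape giving the mouse and a short bar the group mean; the ratios are sorted by their difference. The Pold4 to Pold1 ratio moves from a mean of 0.77 to -2.44 and the Orc1 ratio from -4.02 to -1.35.

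The spread among the AOA libraries followed gene length. The difference of AOA replicate 1 from the mean of the other AOA libraries, in log2 CPM, correlated with log2 length across the 39 genes with a Pearson r of -0.62 (Spearman -0.61), and across all tested genes with -0.49 (Spearman -0.50). Genes of 1 library are not independent, and no test is attached. Of 19 members shorter than 2000 bases, AOA replicate 1 was the highest AOA library in 17, with a median difference of 0.42. Of 20 longer members it was the lowest in 10 and the highest in 9, with a median difference of -0.05. Among all tested genes it was the highest in 2417 of 3427 shorter ones, with a median difference of 0.30. In 8332 longer genes it was the lowest in 4204 and the highest in 2659, with a median difference of -0.09. Of the members, Rpa3 and Gins2 lay at the top among the short genes, and Pole, Rfc1, Chaf1a and Pola1 lay at the bottom among the long ones. The fold changes themselves had a Spearman correlation of -0.08 with length across the 39 genes, and with the length trend removed from each library 36 genes were higher and 1 was lower. In that fit the log2 fold change of Pold4 was -1.71 and that of Rpa3 1.59. Vehicle replicate 2 was the highest vehicle library in 20 of the 39 genes (51.3%), beside 42.2% of all genes.

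**Figure D5:**
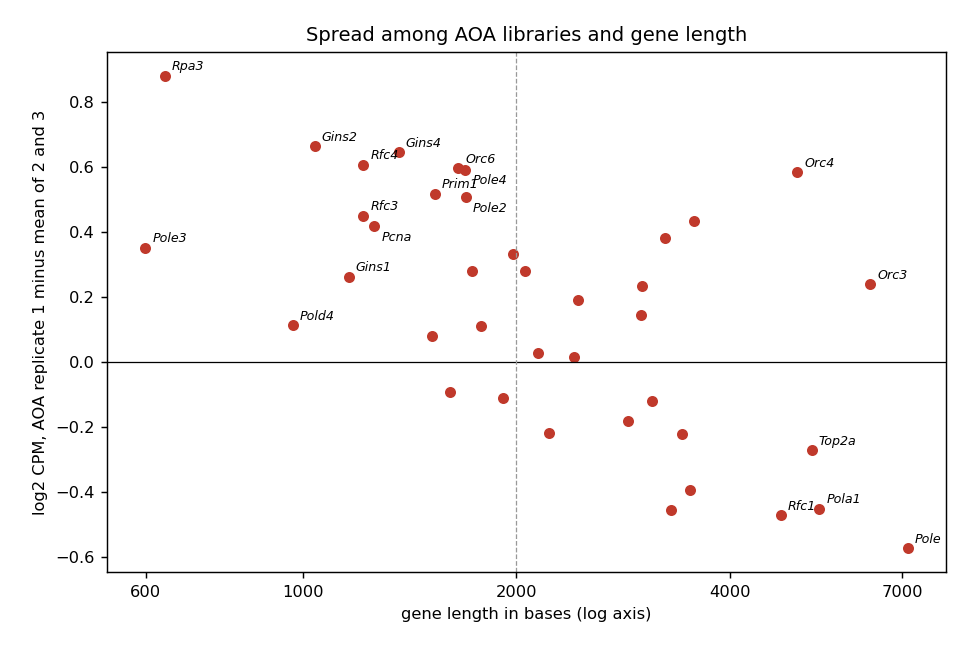
Difference in log2 CPM between AOA replicate 1 and the mean of AOA replicates 2 and 3, plotted against gene length in bases on a log axis, 1 point per gene for the 39 genes. The dashed line marks 2000 bases. To its left 17 of 19 genes have their highest AOA library in replicate 1, beside 2417 of 3427 tested genes below that length. Points reach from below -0.5 for Pole to above 0.8 for Rpa3.

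Other genes of replication were listed by role, with earlier results of these data known. The MCM helicase and its licensing factors rose in 10 of 10 genes, with a median log2 fold change of 2.37. Cdc6, which loads the helicase with ORC, measured 3.18, 7.99 and 4.13 CPM with vehicle and 64.4, 85.3 and 77.9 CPM with AOA (3.89, SE 0.31, edgeR adjusted p = 2.52e-05). Mcm10, a helicase activator, rose by 3.21 (SE 0.15), and Mcm5, a helicase subunit, by 2.97 (SE 0.19). The smallest change of this list was that of Cdt1, the other loader, at 0.58 (SE 0.21, edgeR adjusted p = 0.039). Of 17 genes for origin firing and fork protection 15 rose and 2 did not pass the test, with a median of 1.82. Asf1b, a histone chaperone, rose by 3.22 (SE 0.18), Clspn, the checkpoint mediator claspin, by 3.21 (SE 0.24) and Dna2, a nuclease for long flaps, by 2.56. Donson measured -0.07 (edgeR adjusted p = 0.749). Of 6 genes for the replication of mitochondrial DNA 3 rose and 3 did not pass the test, with a median of 0.46, beside 26.2% of all genes called higher and 53.0% called in either direction. Top1mt, the mitochondrial topoisomerase, rose by 1.37, Tfam, which packages mitochondrial DNA, by 0.85 and Polrmt, the mitochondrial RNA polymerase, by 0.60. Whether the lists differ from each other or from the fork genes was not tested.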

How the data were processed

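CD8+ T cell RNA of 3 vehicle and 3 AOA cultures was measured. The authors prepared stranded poly(A) libraries, sequenced them as paired ends, used STAR without changed settings, and counted reads that mapped uniquely. The deposited values are raw counts per gene with gene lengths. The submitters' processing notes also name mm10, featureCounts and DESeq2. The sources used here state no annotation, strand setting or gene filter. Kit and methods do not show whether antisense reads were counted apart. In GENCODE 18 members share exonic bases with another gene, and not all of these overlaps are named here.

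Counts were analysed in R 4.3.3. edgeR 4.0.16 was run on 11759 genes kept by filterByExpr (minimum count 10), with TMM factors, the robust quasi-likelihood test, Benjamini-Hochberg adjustment and a threshold of 0.05. SE is the log2 fold change over the root of F, and log2 CPM has a prior count of 2. The steps were run on 3 simulated data sets with 200 changed genes each. These had no length trend, mouse effect or library that stood apart, so they cannot show performance where 53.0% of genes are called. Replicates are separate cultures numbered by mouse. Mouse numbers are the same in both groups per the labels, read here as the same 3 mice. Deviations from group means of the same mouse correlated with r of 0.087, 0.19 and 0.19 across genes, and a block for the mouse was an alternative. Other alternatives were DESeq2 1.42.0, limma 3.58.1 (voom), other scalings and filters, removal of a length trend, each library left out, and, chosen after seeing the data, the 2 libraries that stand apart left out together.

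Values in every library are given for the largest and smallest fold change of each complex and for members lower or not called. Of the other lists up to 3 called genes per direction are named. Pcna, Polk and the smallest or uncalled genes of other lists were added after their values were seen. Members and lists were chosen with earlier results of these data known. Upstream sequences and coordinates came from RefSeq (GRCm38.p6), overlaps and copies from GENCODE M21 with BLAST 2.17.0, where copies had at least 95% identity over 150 bases.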

Additional observations from a re-analysis of the deposited data

How the results depend on the processing

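Of the 39 genes 38 stayed on their side of the threshold under all 16 alternative fits. With a replicate block for the mouse, 36 genes were higher, 1 was lower and the median log2 fold change was 1.71, and no call changed. The count of higher genes was 36 under DESeq2, limma voom, both other scalings, both other filters and the length trend removed, and it was 35 to 36 with single libraries left out, where 1 gene was lower each time. The exception was Orc3 without vehicle replicate 3. The median log2 fold change was 1.58 to 1.77 with single libraries left out, lowest without AOA replicate 1, and 1.59 with the length trend removed. All genes called numbered 6233, 4952 to 6796 with single libraries left out, and 3081 when a log2 fold change of at least 1 in either direction was also required. Orc4, which was not called, turned to -0.072 (edgeR adjusted p = 0.605) with vehicle replicate 2 and AOA replicate 1 both left out, a choice made after seeing the data. Its value was 0.03 to 0.42 with single libraries left out. The cause was not tested. Non-overlapping subunit ratios numbered 10 to 14 with a mouse left out, where groups of 2 overlap less readily. With 3 libraries per group no ratio could pass its test.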
